A study of Mus musculus with 10 samples.

Results

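The genes described here carry pyruvate into the tricarboxylic acid (TCA) cycle, control the pyruvate dehydrogenase complex that commits it, and run the cycle itself. They were taken by name, as a fixed list of 34 genes out of 37947 gene symbols in the table, and each was read at the transcript with the highest mean over the libraries. The RNA was poly(A) RNA from the gastrocnemius muscle, the large calf muscle, of male C57BL/6 mice at 6 months (young) and 24 months (aged). There were 5 libraries of each age, numbered 1 to 5 in the labels, and the labels name no treatment or genetic change. The comparison asks what differs between young and aged muscle. Neither the feeding state nor the time of day at collection is given in the sources used here. Values are log2 FPKM, where FPKM is the number of fragments on a transcript scaled to its length and to the depth of the library, and an FPKM under 1 is listed as 0.

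Pyruvate from glycolysis enters the mitochondrion through a carrier and is turned into acetyl-CoA by the pyruvate dehydrogenase complex. Kinases (Pdk genes) switch the complex off by phosphorylating it and phosphatases (Pdp genes) switch it on again, so that their balance sets how much carbohydrate a muscle burns in place of fat. Pdk4 is well known as the kinase that muscle raises in fasting, and acetyl-CoA from either fuel then enters the TCA cycle through citrate synthase.

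All 34 genes were found and 31 passed the filter, a mean FPKM of at least 1 over the 10 libraries. The other 3 were at or near 0: Pdk3, a kinase, was above 0 only in aged library 3, at 0.06 log2 FPKM, and Pdp2, a phosphatase, only in young library 5 at 0.31 and aged library 5 at 0.11. Me2, a mitochondrial malic enzyme, was highest in aged library 4, at 0.78. Of the genes, 30 were above 0 in every library. Mean levels ran from 1.37 log2 FPKM for Acly to 8.66 for Mdh2. For some genes the transcript used matched an annotated model that is not of the protein-coding type. The type was nonsense mediated decay for Mdh2, retained intron for Got1 and Suclg1, and processed transcript for Pdk2, Idh3g, Dlat and Me3. Levels of these genes may therefore not be those of the mRNA that encodes the enzyme.

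The promoters of a few of these genes are shown because the results turn on them: Pdk4, which varied most between mice, Pdk2, a kinase at a similar mean level, and Idh2, which had the smallest p between the ages. The sequences are from RefSeq (GRCm38.p6), 250 bases up to the base before an annotated start, all 3 read on the minus strand, 5′ to 3′. Capitals mark the CCAAT box (CCAAT, or ATTGG on the other strand) and, for Idh2, also the GC box (GGGCGG, or CCGCCC). They lie at chr6:5496279-5496528 for Pdk4, chr11:95041372-95041621 for Pdk2 and chr7:80115351-80115600 for Idh2.
Pdk4: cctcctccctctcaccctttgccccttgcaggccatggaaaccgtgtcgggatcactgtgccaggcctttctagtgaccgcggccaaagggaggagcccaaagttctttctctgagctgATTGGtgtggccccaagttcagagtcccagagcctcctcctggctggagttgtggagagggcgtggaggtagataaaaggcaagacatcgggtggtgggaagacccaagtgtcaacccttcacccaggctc
Pdk2: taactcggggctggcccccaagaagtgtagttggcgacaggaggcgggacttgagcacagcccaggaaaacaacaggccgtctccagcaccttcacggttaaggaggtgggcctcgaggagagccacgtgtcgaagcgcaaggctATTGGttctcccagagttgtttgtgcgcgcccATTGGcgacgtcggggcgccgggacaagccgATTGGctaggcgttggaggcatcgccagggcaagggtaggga
Idh2: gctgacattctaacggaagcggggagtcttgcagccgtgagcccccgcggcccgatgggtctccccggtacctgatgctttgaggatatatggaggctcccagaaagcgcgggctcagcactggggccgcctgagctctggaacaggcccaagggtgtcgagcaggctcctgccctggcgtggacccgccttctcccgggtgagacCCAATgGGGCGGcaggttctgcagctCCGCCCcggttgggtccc
The printed Pdk2 window, at the outer of 2 RefSeq starts, holds 3 CCAAT boxes, and the window at the other start (chr11:95040876-95041125) holds 0. The Pdk4 and Idh2 windows hold 1 each, and that of Idh2 also holds 2 GC boxes. RefSeq windows were matched for 31 of the 34 genes, giving 42 windows. A CCAAT box was in 52.4% of these windows and in 33.8% of all 32851 windows of the same length, and a GC box in 57.1% and 32.7%, searched on both strands. TATAAA was in 2.38% and 12.4%, AGGTCA, the half-site of nuclear receptors, in 14.3% and 14%, and GTAAACA, a FOXO core, in 0 of the 42 and 3.17% of all. These are matches of letters in a window and not measured binding.

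Libraries numbered 3 stood apart and bear on every comparison. Aged library 3 had 29878 transcripts above 0 and young library 3 had 35024, against 38855 to 43296 in the other 8 libraries, although these had the most reads, within depths of 19886359 to 34554354. Aged library 3 was below the other 9 libraries for 17 of the 31 genes tested, where 39.8% of 10161 genes showed the same, and above them for 3, where 22.8% of genes did. Its median deviation from the mean library was -0.72 log2 over the genes described here and -0.26 over all genes. Differences are therefore given with all libraries and, for genes of the fixed list described singly, also without both libraries numbered 3.

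**Figure D1:**
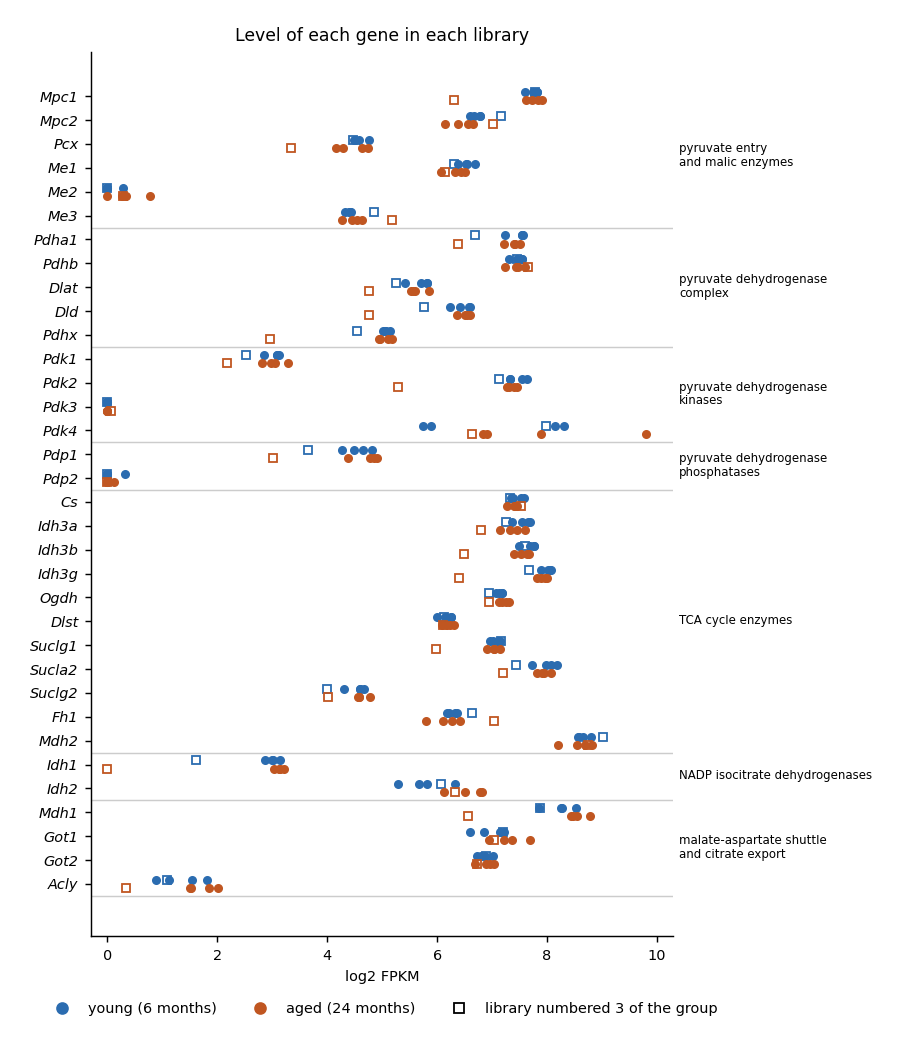
Log2 FPKM (horizontal axis) of the 34 genes in each library, grouped by role, with young libraries above aged ones for each gene and open squares for the libraries numbered 3. Most genes have closely packed points, aged library 3 lies to the left for many (for Pdk2 at 5.29), and Pdk4 spreads over 4.06 log2 units.

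No gene of the group passed an adjusted p under 0.05 in limma between the ages (Benjamini-Hochberg over 38059 transcripts, of which 0.00788% did, either direction). At an unadjusted p under 0.05, 1 gene was higher in aged muscle (Idh2), where 6.05% of genes were, and 0 were lower, where 0.876% were. For no gene did every aged library lie above (2.08% of genes) or below (0.344%) every young library. The difference, aged minus young, was below 0 for 19 of the 31 genes (61.3%, against 38.6% of all genes) and its median was -0.09 log2, against 0.07 over all genes. Of the 31 genes, 30 (96.8%) had a difference smaller than 0.5 log2 in either direction, as did 88.4% of all genes.

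Without both libraries numbered 3, the difference was smaller in size for 16 of the 31 genes and larger for 15. The median was -0.02, against 0.14 over all genes, with 17 below 0 and 14 above (27.1% of all genes were below 0). No gene passed the adjusted threshold in limma, as 0.0289% of transcripts did, and Idh2 was again the 1 gene at an unadjusted p under 0.05, higher in aged muscle (13.5% of genes were higher and 1.38% lower). The groups of 4 libraries were fully apart for none of the 31 genes, where 9.92% of genes had every aged library above and 1.05% every one below. Every aged library was below the young library of its number for 4 genes (Mpc2, Me1, Pdha1 and Idh3g), where 3.00% of genes showed this, and above it for 1 (Idh2), where 11.4% did. Without both libraries 3, for 24 of the 31 genes the difference was under 0.2 log2 in size, and for 24 the 95% interval lay within 0.5 of 0. With all libraries 26 genes had an interval within 1 of 0. These intervals state how large a difference at either age these libraries leave room for, and do not show that the levels were equal. In bulk muscle, fewer cells of a type and less RNA per cell cannot be told apart.

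**Figure D2:**
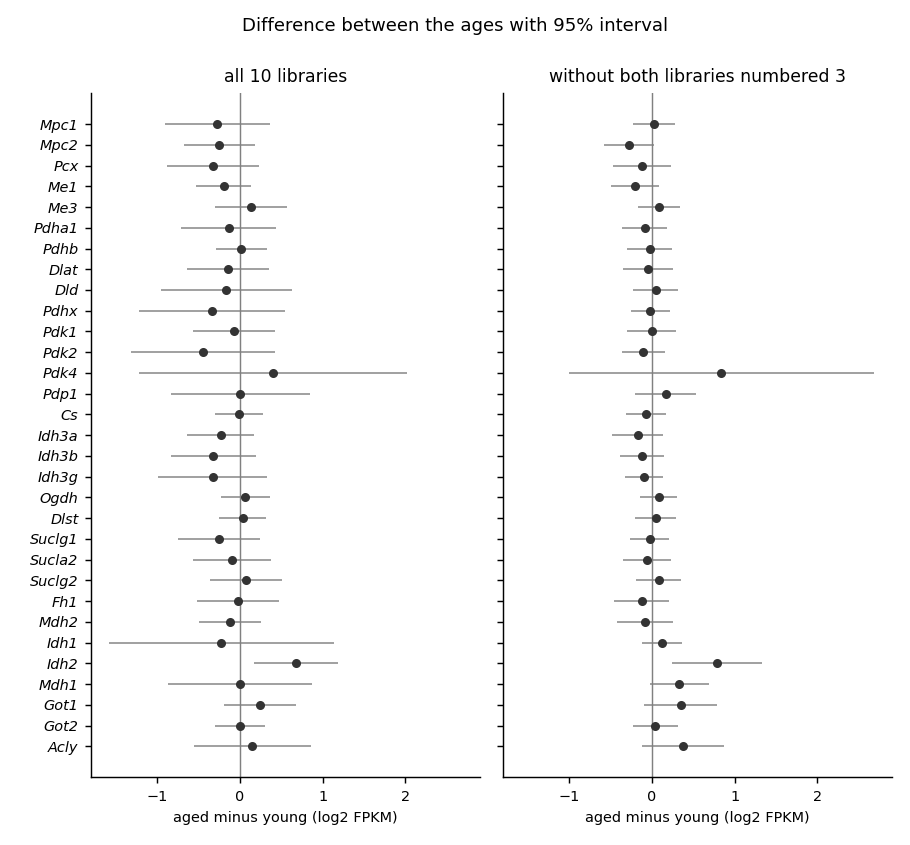
Difference between the ages (aged minus young, log2 FPKM) with its 95% limma interval for the 31 genes tested, with all 10 libraries (left) and without both libraries numbered 3 (right). Intervals narrow on the right for most genes, and Idh2 is the only gene whose interval lies above 0 in both panels, while that of Pdk4 stays wide.

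No gene of pyruvate entry passed the unadjusted threshold with all libraries. Mpc1 and Mpc2 encode the subunits of the mitochondrial pyruvate carrier. The level of Mpc1 in log2 FPKM, in the order of the library numbers, was 7.82, 7.60, 7.78, 7.81 and 7.75 in young muscle, and in aged muscle it was 7.83, 7.91, 6.31, 7.62 and 7.73. This order of libraries 1 to 5 is kept for every gene. Aged library 3 was low and the other 9 lay together. The difference was -0.27 (95% interval -0.91 to 0.36) with all libraries and 0.03 (-0.23 to 0.28) without both libraries 3. Mpc2 was at 6.77, 6.60, 7.16, 6.79 and 6.68 in young muscle and 6.65, 6.56, 7.03, 6.14 and 6.39 in aged muscle. Here both libraries 3 were the highest, and each aged library was below the young library of its number. The difference in Mpc2 was -0.25 (-0.68 to 0.18), and -0.27 (-0.58 to 0.03) without both libraries 3. Without aged library 3 alone it was -0.37 and its unadjusted limma p was under 0.05 (adjusted p = 0.422). In the log2 ratio of Mpc1 to Mpc2 within a library, the remaining groups did not overlap, at 1.04 ± 0.03 (SD, n = 4; 1.00 to 1.07) in young and 1.34 ± 0.13 (SD, n = 4; 1.18 to 1.49) in aged muscle. With the libraries numbered 3 they did overlap, at 0.61 for the young and -0.72 for the aged one, and of 11 ratios examined this was the only one that separated without those libraries.

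Among enzymes that link pyruvate and the cycle, Pcx (pyruvate carboxylase) differed by -0.32 (-0.88 to 0.23) and Me3, a mitochondrial malic enzyme, by 0.13 (-0.30 to 0.57). These were -0.12 (-0.47 to 0.23) and 0.09 (-0.17 to 0.34) without both libraries 3. Me1, the cytosolic malic enzyme, ranged from 6.31 to 6.68 log2 FPKM in young and from 6.07 to 6.51 in aged muscle. Every aged library was below the young library with its number, yet the groups overlapped, with a difference of -0.20 (-0.53 to 0.13), which was also -0.20 (-0.50 to 0.09) without both libraries 3.

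The subunits of the pyruvate dehydrogenase complex did not differ beyond their spread. Pdhb, the beta subunit of the decarboxylase and the highest of the 5, was at 7.45, 7.31, 7.45, 7.55 and 7.54 log2 FPKM in the young mice and 7.61, 7.48, 7.66, 7.23 and 7.43 in the aged mice. The groups overlapped, with aged libraries both above and below the young range, and the difference was 0.02 (-0.29 to 0.33). Pdha1 (the alpha subunit), Dlat (the acetyltransferase), Dld (the dihydrolipoyl dehydrogenase that also serves the alpha-ketoglutarate complex) and Pdhx (which anchors Dld) differed by -0.14, -0.14, -0.16 and -0.33. Pdha1 was also lower in each aged library than in the young library of its number. Without both libraries 3 the 5 subunits lay between -0.09 and 0.05.

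The kinases held the widest spread. Pdk4 (chr6:5483351-5496278 on GRCm38.p6), with the promoter shown, stood at 5.75, 8.15, 7.98, 5.88 and 8.31 log2 FPKM in the young mice and at 6.84, 6.90, 6.64, 7.89 and 9.81 in the aged mice. Young libraries 1 and 4 were the lowest of all, aged library 5 was the highest, and the ages overlapped. From lowest to highest library the level differed 16.6-fold, or 4.06 log2. The young mean was 7.21 ± 1.28 and the aged mean 7.62 ± 1.32 (SD, n = 5 each), which differed by 0.40 (-1.22 to 2.02), or 1.32-fold with an interval of 0.429 to 4.07 (limma p = 0.595, adjusted p = 0.9999; two-sided exact permutation p = 0.675). Without both libraries 3 the difference was 0.84 (-1.01 to 2.68), or 1.79-fold (limma adjusted p = 0.668), and without aged library 5 alone it was -0.15. The pooled within-age SD of Pdk4 was 1.30 log2, wider than that of 97.9% of genes and 99.1% without both libraries 3, while the median over the 31 genes was 0.344 (0.388 over all genes), and 0.141 without those libraries (0.231).

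Pdk2, a broadly expressed kinase, was at 7.64, 7.55, 7.12, 7.33 and 7.33 log2 FPKM in the young mice, with 7.31, 7.40, 5.29, 7.28 and 7.45 in the aged mice. Apart from aged library 3 the values lay between 7.12 and 7.64. The difference was -0.45 (-1.31 to 0.42), and -0.10 (-0.36 to 0.16) without both libraries 3. Pdk1 was lower in level, at 3.13, 2.85, 2.53, 3.08 and 3.09 in young and 3.05, 2.98, 2.18, 3.28 and 2.82 in aged muscle. The lowest library of each age was again number 3, and the difference was -0.07 (-0.57 to 0.42), or -0.0037 (-0.30 to 0.29) without both. The log2 ratio of Pdk4 to Pdk2 in a library ranged from -1.89 to 0.98 in young and from -0.50 to 2.35 in aged muscle, so that the kinase with the higher FPKM differed between mice of the same age. Pdp1, the catalytic phosphatase subunit, was at 4.66, 4.27, 3.65, 4.81 and 4.49 in young and 4.85, 4.90, 3.01, 4.78 and 4.38 in aged muscle. Both libraries numbered 3 were lowest and the groups overlapped, with a difference of 0.01 (-0.83 to 0.84), or 0.17 (-0.20 to 0.54) without both.

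Pdk4 levels were set beside genes of the lists of its known regulators and of targets of PPAR, the fatty acid-sensing nuclear receptors. Ucp3, a mitochondrial uncoupling protein, and Foxo1, a transcription factor active in fasting, were chosen after their values were seen. Ucp3 was at 4.96, 7.15, 7.26, 4.90 and 7.45 log2 FPKM in the young mice, with 5.38, 5.65, 4.52, 6.58 and 6.73 in the aged mice. Foxo1 was at 0.71, 2.58, 2.83, 0.99 and 3.17 in young and 1.24, 1.34, 1.08, 2.18 and 2.28 in aged muscle. In young muscle all 3 genes were lowest in libraries 1 and 4 and highest in library 5, and in aged muscle all 3 were lowest in library 3 and highest in library 5. These shared positions were shown by 1 of the 15 regulators tested (Foxo1) and 1 of the 19 PPAR targets tested (Ucp3), against 0.374% of 10161 genes. The positions are those that these 3 genes share, so the matches of Foxo1 and Ucp3 were fixed in advance and are no test. Young library 2 was above young library 3 for Pdk4 (8.15 and 7.98) and below it for Ucp3 and Foxo1. Young libraries 1 and 4 alone were the lowest young libraries for 3 of the regulators and 8 of the targets, against 8.28% of genes. Young library 5 was the highest young library for 4 of the regulators and 7 of the targets, against 13.9% of genes. Aged library 3 was the lowest aged library for 13 of the regulators and 9 of the targets, against 53.1% of genes. Aged library 5 was the highest aged library for 6 of the regulators and 11 of the targets, against 26.3% of genes. Neither Ucp3 (difference -0.57, exact permutation p = 0.413, limma adjusted p = 0.9999) nor Foxo1 (-0.43, exact permutation p = 0.429, limma adjusted p = 0.9999) differed with age beyond the spread, and without both libraries 3 the differences were -0.03 and -0.10. Whether the animals differed in feeding was not tested.

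**Figure D3:**
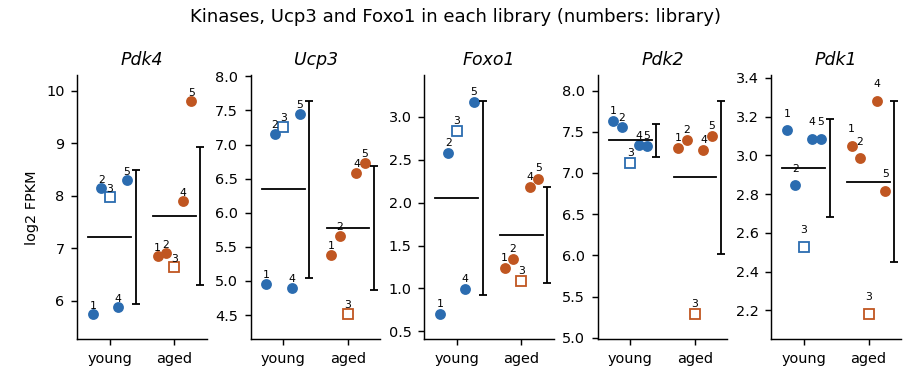
Log2 FPKM of Pdk4, Ucp3, Foxo1, Pdk2 and Pdk1 in each library, numbered as in the labels, with the group mean (line) and SD (bar, n = 5) and open squares for the libraries numbered 3. Each panel has its own vertical scale. Young libraries 1 and 4 lie below the other young libraries for Pdk4, Ucp3 and Foxo1, and for Pdk2 aged library 3 stands alone at 5.29.

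No enzyme of the cycle differed beyond its spread. Of the 11, 8 had a difference below 0 and 3 above, from -0.33 (Idh3g) to 0.07 (Suclg2), and without both libraries 3 the range was -0.17 (Idh3a) to 0.08 (Suclg2). Mdh2, the mitochondrial malate dehydrogenase and the highest of all, was at 8.79, 8.58, 9.02, 8.65 and 8.56 log2 FPKM in young and 8.82, 8.69, 8.75, 8.20 and 8.54 in aged muscle. Aged library 4 was lowest and young library 3 highest, and the difference was -0.12 (-0.49 to 0.25), or -0.09 (-0.42 to 0.25) without both libraries 3. Cs, citrate synthase and the entry step, ranged from 7.32 to 7.59 in young and 7.26 to 7.53 in aged muscle, with a difference of -0.01 (-0.30 to 0.27), or -0.07 (-0.31 to 0.17) without both libraries 3. Ogdh, the first subunit of the alpha-ketoglutarate dehydrogenase complex, had the smallest within-age SD of the 31 genes without both libraries 3, 0.0656 log2, below that of all but 0.896% of genes. Its partner Dlst differed by 0.03 (-0.25 to 0.32), and the subunits of the NAD isocitrate dehydrogenase, Idh3a, Idh3b and Idh3g, by -0.23, -0.32 and -0.33, each with an interval that spans 0. The 4 differences were 0.05 for Dlst and -0.17, -0.12 and -0.10 for the subunits without both libraries 3.

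Idh2 encodes the mitochondrial isocitrate dehydrogenase that makes NADPH, used against oxidants, rather than NADH. It lies at chr7:80094845-80118608, and the window shown above precedes a RefSeq start inside these bounds, not the outer 5′ end of the gene. Its level was 5.82, 5.28, 6.08, 5.66 and 6.33 log2 FPKM in the young mice, and 6.79, 6.51, 6.33, 6.12 and 6.82 in the aged mice. The 3 highest libraries were aged and the 4 lowest young, and the groups overlapped through young library 5. It was above aged library 4 and barely above aged library 3 (6.32756 against 6.32745). Means were 5.83 ± 0.40 (SD, n = 5) and 6.51 ± 0.30 (SD, n = 5), a difference of 0.68 (SE 0.23, 95% interval 0.18 to 1.19), or 1.60-fold with an interval of 1.13 to 2.27. The limma p was 0.0131 and the adjusted p 0.9999, so Idh2 did not pass the threshold over all transcripts, and the two-sided exact permutation p was 0.0238 where 5 against 5 allows no less than 0.00794. Each aged library was above the young library of its number, for 5 of 5 numbers, which the labels do not give as pairs. Without both libraries 3 the difference was 0.79 (0.24 to 1.33; limma p = 0.00966, adjusted p = 0.279; exact permutation p = 0.0571, where 4 against 4 allows no less than 0.0286). All 6 Idh2 transcripts that passed the filter gave differences between 0.58 and 0.71, although such transcripts share reads. Idh1, the cytosolic and peroxisomal enzyme, was at 0 in aged library 3, 1.62 in young library 3 and between 2.86 and 3.20 in the other libraries, a difference of 0.12 (-0.12 to 0.36) without both libraries 3.

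Fiber type markers were read beside Idh2. Of 8 slow fiber markers, 2 were higher in aged muscle at an unadjusted limma p under 0.05, Myl3 (1.60 log2) and Myoz2 (0.96), where 6.05% of genes were, and 0 at an adjusted one. The median difference of the 8 markers was 1.48 log2, against 0.07 over all genes. Without both libraries 3 it was 1.81, against 0.14 over all genes, and 3 markers were higher, where 13.5% of genes were. The summed level of the 8 markers was 37.5, 107.4, 339.8, 41.6 and 241.3 FPKM in the young mice, and 979.4, 533.0, 392.2, 163.8 and 80.2 FPKM in the aged mice. The young libraries with the highest sums, 3 and 5, also had the highest young Idh2, though in the reverse order. Young library 1, with the lowest sum, was above libraries 2 and 4 in Idh2 (5.82 against 5.28 and 5.66). In aged libraries 1 to 4 the sum and Idh2 had the same order, and aged library 5 had the lowest sum and the highest Idh2. None of the 8 markers was at 0 in all libraries. Of 12 fast fiber markers 0 passed in either direction, where 6.05% of genes were higher and 0.876% lower. Without both libraries 3, 1 of them was lower, where 1.38% of genes were. The summed levels of the fast fiber markers were 166140 to 216866 FPKM in young and 153091 to 214733 FPKM in aged muscle. The part of fiber type in the Idh2 levels was not tested.

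**Figure D4:**
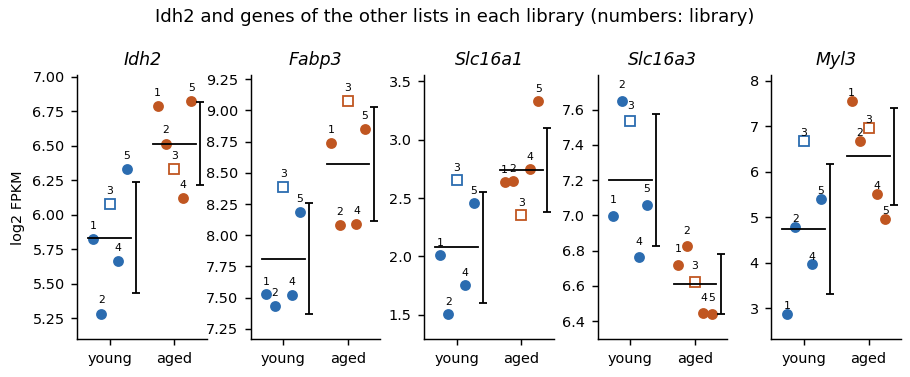
Log2 FPKM of Idh2, Fabp3, Slc16a1, Slc16a3 and Myl3 in each library, numbered as in the labels, with the group mean (line) and SD (bar, n = 5) and open squares for the libraries numbered 3. Each panel has its own vertical scale. Idh2 runs from 5.28 to 6.33 in young and 6.12 to 6.82 in aged muscle, and Slc16a3 from 6.76 to 7.65 in young and 6.44 to 6.82 in aged muscle.

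The malate-aspartate shuttle, which carries the reducing power of glycolysis into the mitochondrion, had differences from 0.00 (Got2) to 0.24 (Got1) with all libraries. Mdh1, the cytosolic malate dehydrogenase, was at 8.25, 7.85, 7.87, 8.28 and 8.52 log2 FPKM in young and 8.78, 8.48, 6.56, 8.43 and 8.55 in aged muscle. Aged library 3 was the lowest of the 10, and the other 4 aged libraries were above every young library except library 5, which lay among them. The difference was 0.00 (-0.86 to 0.87) with all libraries. It was 0.33 (-0.03 to 0.69) without both libraries 3, and 0.40 without aged library 3 alone (limma adjusted p = 0.418), where its unadjusted p was under 0.05. Acly, which cleaves exported citrate, was measured on few reads at Acly-002, the transcript used (24 to 49 in a library), and differed by 0.15 (-0.56 to 0.86), or 0.38 (-0.12 to 0.87) without both libraries 3. At Acly-001, a transcript of 4392 bases, the difference was 0.40, or 0.48 without both libraries 3 (limma adjusted p = 0.238). Without those libraries 4 of the 5 Acly transcripts tested were higher at an unadjusted limma p under 0.05, as were 13.5% of genes. These transcripts share reads, and with all libraries 0 of the 5 passed. Got1, the cytosolic transaminase, differed by 0.24 (-0.19 to 0.68) and by 0.35 (-0.10 to 0.79) without both libraries 3.

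The levels in library 3 varied with the position of a transcript within its gene. For 111 transcripts of 25 of the genes, an annotated model gave the number of exon bases that other models of the gene hold past the 3′ end of the transcript. In aged library 3 minus the mean of the other 4 aged libraries, the median was -0.24 log2 for 43 transcripts with 0 to 500 such bases, -1.12 for 14 with up to 1000, -1.73 for 29 with up to 2000 and -2.54 for 25 with more. In young library 3 the same medians were 0.10, 0.05, -0.43 and -0.82. Across these transcripts, which share genes, reads and libraries, Spearman's rho was -0.708 in aged library 3 and -0.559 in young library 3. For the other libraries, each set against the rest of its age without library 3, rho lay between -0.153 and 0.181 in young muscle and was -0.365, -0.279, 0.528 and -0.235 in aged libraries 1, 2, 4 and 5.

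Several genes show this within their own transcripts and others do not. Ogdh-005, of 702 bases and with 3807 exon bases past its end, was 6.22 log2 lower in aged library 3 than in the other aged libraries (-6.22), and Ogdh-002, with 50 bases past its end, differed by -0.27. Pdk2-003, the transcript used above, ends 1889 bases short and differed by -2.07, whereas Pdk2-001, which reaches the end, differed by 0.04 and gave an age difference of -0.12. Against this order, Fh1-004, with 1002 bases past its end, was higher in aged library 3, by 1.31, and Me3-006, the Me3 transcript used above, with 2397 such bases, by 0.69. Idh1-001, which also reaches the end, gave an age difference of 0.20 and Mdh1-001 one of 0.29, against -0.23 and 0.00 at the transcripts used above. At a protein-coding model, the age difference was -0.16 for Mdh2, -0.06 for Suclg1, -0.15 for Idh3g and 0.23 for Got1. It was -0.15 for Dlat and 0.02 for Me3. Over 24 genes with several transcripts, the median spread of the age difference between transcripts of a gene was 0.373 log2, and 0.0657 without both libraries 3.

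**Figure D5:**
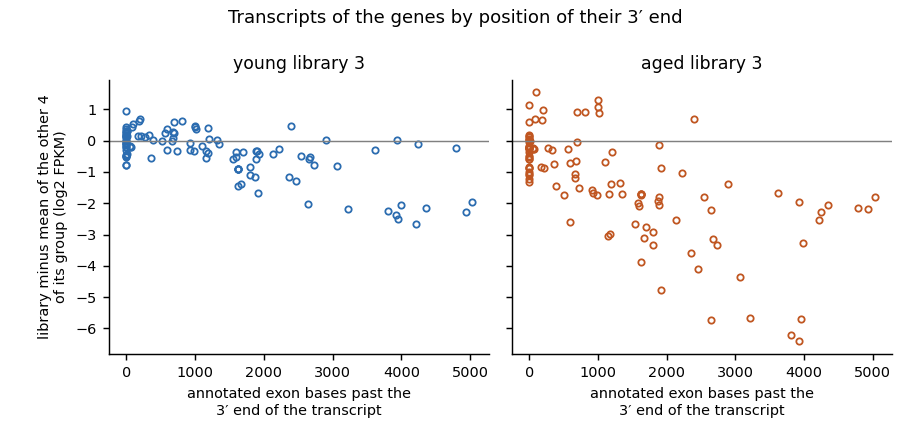
Level in young library 3 (left) and aged library 3 (right) minus the mean of the other 4 libraries of the age (log2 FPKM), against the annotated exon bases past the 3′ end of the transcript, for 111 transcripts of 25 genes (1 point each). Points fall away from 0 to the right, further in aged library 3, where those past 2000 bases have a median of -2.54 against -0.82 in young library 3.

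Other genes of the pathway were read from lists. Of 12 further genes of the cycle and of complex II (aconitases, succinate dehydrogenase and relatives), 8 were tested and 0 passed an unadjusted p under 0.05 in limma in either direction, with a median difference of -0.01. Of 20 genes for pyruvate supply, lipoylation and carriers, 17 were tested: 1 was higher, Slc16a1, a lactate and pyruvate transporter (difference 0.66, exact permutation p = 0.0635), and 2 were lower, Slc16a3, the lactate exporter of glycolytic fibers (-0.59, exact permutation p = 0.0159), and Pkm, pyruvate kinase (-0.34, exact permutation p = 0.0238). These exact tests are two-sided, and the genes were counted by limma. The list of transcription factors and coactivators had 15 of 19 tested and 0 past that threshold, and the list of PPAR targets 19 of 20, with Fabp3, the muscle fatty acid-binding protein, higher (0.76, exact permutation p = 0.0476). The shares over all genes were 6.05% higher and 0.876% lower. Without both libraries 3, where 13.5% of genes were higher and 1.38% lower, 6 PPAR targets were higher and 0 lower, 2 genes of the supply and carrier list were higher and 1 lower, and the remaining lists had 0 in either direction. No gene of these lists passed the adjusted threshold, where every adjusted p of those named was 0.9999.

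Markers of other cell types were read as well. Of 9 adipocyte and 8 endothelial markers tested, 0 passed an unadjusted p under 0.05 in limma, of 3 leukocyte markers 2 were higher in aged muscle (Cd68 and Lyz2, with Cd3e at 0 in all libraries), of 6 fibroblast markers 1 was lower, of 3 Schwann cell markers 1 was higher and of 4 red blood cell markers 0. Among 12 immediate early genes, which respond quickly to stimulation, 7 were higher. These counts stand against 6.05% of all genes higher and 0.876% lower. Without both libraries 3 (13.5% and 1.38%), 1 adipocyte marker was higher, 3 fibroblast markers were lower and 1 higher, 0 Schwann cell markers passed, and the counts of endothelial, leukocyte, red blood cell and immediate early genes were as before. No marker passed the adjusted threshold. Summed levels were 11.6 to 27.4 FPKM in young and 21.0 to 99.0 FPKM in aged muscle for leukocyte markers. Their part in the values above was not tested.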

How the data were processed

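The authors purified poly(A) RNA, sequenced it in pairs, aligned the pairs to mm10 using TopHat2 and Bowtie2, and deposited log2 FPKM per library for 92251 transcripts without pooling. The counting program is not given in the sources used here. The methods describe FPKM per RefSeq gene, whereas the rows carry Ensembl and Vega transcript names. Of the rows, 233 had no gene name. Libraries were grouped by age as the labels give it. The labels do not say that libraries of an age are separate mice, which the methods imply, so p-values measure the spread between libraries.

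The genes, lists and alternatives were chosen with earlier results of these data known. The deposited log2 values were tested as they stand with limma 3.58.1 (lmFit, eBayes, R 4.3.3) over 38059 transcripts whose mean FPKM reached 1 (values at 0 counted as 0), with Benjamini-Hochberg adjustment over all of them, and checked on simulated data. Intervals are those of limma. Single values were also tested with an exact two-sided permutation test (scipy 1.17.1). Positions are from RefSeq (GRCm38.p6) and transcript models from GENCODE.

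Values in every library were given for genes with an unadjusted p under 0.05, the kinases and the highest gene of each role. The levels of Mpc2 and Ogdh and the Mpc1 to Mpc2 ratio were picked out with their values known. List genes were named at an unadjusted p under 0.05, at most 4 per list. Depths were recovered from the steps between deposited values and describe precision only. Over the transcripts, deviations of same-numbered young and aged libraries had r of 0.131 to 0.695 (5 numbers, mean 0.351). The 20 other combinations had r of -0.759 to 0.542 (mean -0.04). The highest same-number r (0.695) and the lowest other r (-0.759) both involved libraries numbered 3. Among the remaining libraries the highest r was of young library 5 with aged library 4 (0.542), against 0.208 for young 5 with aged 5. A pairing is thus not established, and the numbers were treated as pairs in 1 alternative. Others changed scaling, pseudocount, filter, variance model, transcript and the libraries used.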

Additional observations from a re-analysis of the deposited data

Results flagged for a closer look

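Of 62 groups of 5 libraries (31 genes at 2 ages), 15 held a library whose gap to the nearest other exceeded Dixon's 95% value, and each was a library numbered 3. This is 24.2% of groups, against 18.2% of the groups of all genes and about 5% by chance. Aged library 3 was the low one for 12 genes, in log2 FPKM, with the other 4 aged libraries far above it. In pyruvate entry and the pyruvate dehydrogenase system these were Mpc1 at 6.31, Pdha1 at 6.38, Dld at 4.76, Pdhx at 2.95, Pdk2 at 5.29 and Pdp1 at 3.01. In the cycle and its side enzymes they were Idh3b at 6.48, Idh3g at 6.40, Suclg1 at 5.98, Sucla2 at 7.20, Idh1 at 0 and Mdh1 at 6.56. Young library 3 stood apart for 3 genes: it was low for Pdhx at 4.54 and Idh1 at 1.62, and high for Me3 at 4.85. The part of sample quality in these values was not tested.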

How the results depend on the processing

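Under alternatives other than leaving out 1 library, 171 values kept their direction and side of the threshold, 9 changed sign and 2 counts moved. Part of this was fixed in advance. Changes of the filter, the variance model or the rows fitted, and the replicate block, cannot change the difference of means of a gene. With the replicate block (same-numbered pairs) the Idh2 difference was 0.68 with a limma adjusted p = 0.562, and no call changed. Over all alternatives other than leaving out 1 library, the Idh2 difference was 0.62 to 0.79 with adjusted limma p of 0.279 to 0.99998. Differences near 0 changed sign: Mdh1 to -0.037 with a median shift of each library and -0.027 with quantile normalization, Pdhb to -0.021 and -0.085 under these and -0.027 without both libraries 3, Pdp1 to -0.034 and -0.0066 under these and -0.015 with the mean over transcripts, and Mpc1 to 0.026 without both libraries 3. No gene was counted higher (0, not 1) with the study's 2-sample equal-variance test and a difference over 1 log2, and 1 gene was lower (Mpc2-002, -0.49, limma adjusted p = 0.9999) with the longest transcript of each gene, an alternative chosen after seeing the data.

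Leaving out 1 library at a time, adjusted calls stayed at 0 to 0, genes higher at an unadjusted p ran from 1 to 2 and lower from 0 to 1 (the highest of both without aged library 3, which added Mdh1 and Mpc2), and genes with separate groups from 0 to 1 above (Idh2, without young library 5) and 0 to 0 below. The median difference ran from -0.17 to 0.04. Single differences ran from 0.54 to 0.80 for Idh2, -0.15 to 0.40 for Mdh1, -0.18 to -0.02 for Mdh2, -0.38 to 0.020 for Mpc1, -0.024 to 0.082 for Pdhb, -0.18 to 0.10 for Pdk1, -0.57 to -0.03 for Pdk2, -0.15 to 0.67 for Pdk4 and -0.17 to 0.35 for Pdp1. At an FPKM of 1, a transcript of 1 kb has 19.9 to 34.6 reads, so changes of genes listed at 0 were not detectable.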
